A study of Mus musculus with 42 samples.

Results

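The mouse carotid intima was compared between low and high flow 7 days after partial ligation of the left carotid artery, in the Rbfox2 control animals of the study. The comparison held 5 of the 42 samples of the series, 3 from low flow and 2 from high flow, and was chosen by their labels and not by any measured value. In this operation most branches downstream of the left common carotid are tied while the superior thyroid artery is spared, so that flow in the left carotid becomes low and disturbed, and the untouched right carotid of the same mice supplies the high flow arteries. The labels give the control animals a C57 background. According to the study's methods they were littermates of the Rbfox2 EC-KO animals, with the Rosa26-mTmG reporter and Rbfox2 lox/lox alleles but without the Cdh5(PAC)-CreERT2 transgene that deletes Rbfox2 in endothelial cells. They were 2 to 7 months old and both sexes were used, and per the labels each library was a pool of 3 to 5 arterial flushes. In the count table the libraries carry the numbers 1, 4 and 5 at low flow and 4 and 5 at high flow, and they are called low 1, low 4, low 5, high 4 and high 5 here. An intimal flush is the RNA that a lysis reagent washes from the inner surface of the artery, so it holds endothelial RNA together with RNA of any leukocyte, smooth muscle or other cell the reagent reached. The tests below measure the spread between these pools only.

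Low 1 stood apart from the other low flow libraries. Across 12795 genes its log2 counts, scaled to library size, correlated with those of high 4 and high 5 (Pearson's r = 0.938 and 0.905, across genes, which are not independent replicates) more closely than with those of low 4 and low 5 (r = 0.842 and 0.855), while low 4 and low 5 correlated at 0.904. The column headers place low 1 in another sequencing run than low 4, high 4 and high 5, and low 5 was sequenced again in a later run, whose deeper column was used. Total counts were 16579136 in low 1, 13763355 in low 4, 10318685 in low 5, 14724644 in high 4 and 11252801 in high 5. The Y-linked genes Ddx3y, Eif2s3y, Kdm5d and Uty had 17.7, 19.2, 3.33 and 4.76 FPKM in low 1 and no count in the other 4 libraries, whereas Xist, which is transcribed from the inactive X chromosome, was at 5.83, 7.07 and 10.1 FPKM at low flow and 4.63 and 6.45 FPKM at high flow, so that the pools differed in the sexes of their mice. FPKM is a level scaled to the effective length of the transcript and to the size of the library, so that genes can be set beside each other. The library was kept in the main test, as the labels place it in the low flow group, and results are also given without it. Whether its label is right was not tested. Low 1 was alone in its run and alone held Y-linked counts, so that the library, its run and the sex of its mice cannot be told apart.

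Endothelial cells sense the friction of flowing blood, the shear stress, through their junctions, cilia and membrane channels. High, steady shear maintains the transcription factors KLF2 and KLF4, which drive anticoagulant and vasodilator genes and restrain adhesion molecules. Low and disturbed flow relieves this program, activates NF-kappaB and YAP/TAZ signalling, recruits leukocytes and starts the remodelling of the wall that precedes an atherosclerotic plaque. The mouse carotid ligation is a standard model of that change.

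With all 5 libraries, edgeR's quasi-likelihood test called 3 of 12795 genes (0.0234%) with the adjusted p below 0.05, all of them lower at low flow. They were Fgfr3, Vipr1 and Stmn2. Unadjusted p was below 0.05 for 2240 genes, and DESeq2 called 909 genes higher (7% of 12989) and 366 lower (2.82%). Without low 1, edgeR called 1907 genes higher (15.5% of 12322) and 1434 lower (11.6%). With any one of the other 4 libraries left out, no gene was called. Without low 4, low 5, high 4 and high 5 in turn, 1356, 1451, 933 and 678 genes had an unadjusted p below 0.05. As a count that no single call rule decides, 3186 of the 12795 genes (24.9%) had all 3 low flow libraries above both high flow libraries in FPKM, and 2043 (16%) had them below. These shares are the background against which the members of each gene list are read below. The lists hold genes named from textbook knowledge, were chosen with earlier results of these data known, and are described by counts and medians, without a test of the list. The median log2 fold-change of all genes tested was 0.02 over 5 libraries and 0.00 without low 1.

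Fgfr3, a receptor tyrosine kinase for fibroblast growth factors (chr5:34064373-34079716, forward strand, mm9), had 9.97, 7.81 and 9.07 FPKM in low 1, low 4 and low 5, and 72.2 and 68.1 FPKM in high 4 and high 5. Its log2 fold-change was -3.06 ± 0.22 (SE, adjusted p = 0.0394). Vipr1, the receptor for the vasodilator peptide VIP (chr9:121551834-121582072, forward strand), was at 0.646, 0.321 and 0.367 FPKM at low flow and 16.7 and 14.6 FPKM at high flow, and its log2 fold-change was -5.21 ± 0.40 (adjusted p = 0.0394). Stmn2, a stathmin that binds tubulin (chr3:8509527-8561604, forward strand), was at 10.1, 10.4 and 7.38 FPKM at low flow and 81 and 75 FPKM at high flow, with a log2 fold-change of -3.16 ± 0.24 (adjusted p = 0.0394). In each of the 3 genes low 1 lay with the other low flow libraries and the groups were far apart, which was not the case for most genes. All 3 were called without low 1 as well, at log2 fold-changes of -3.09, -5.54 and -3.17.

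**Figure D1:**
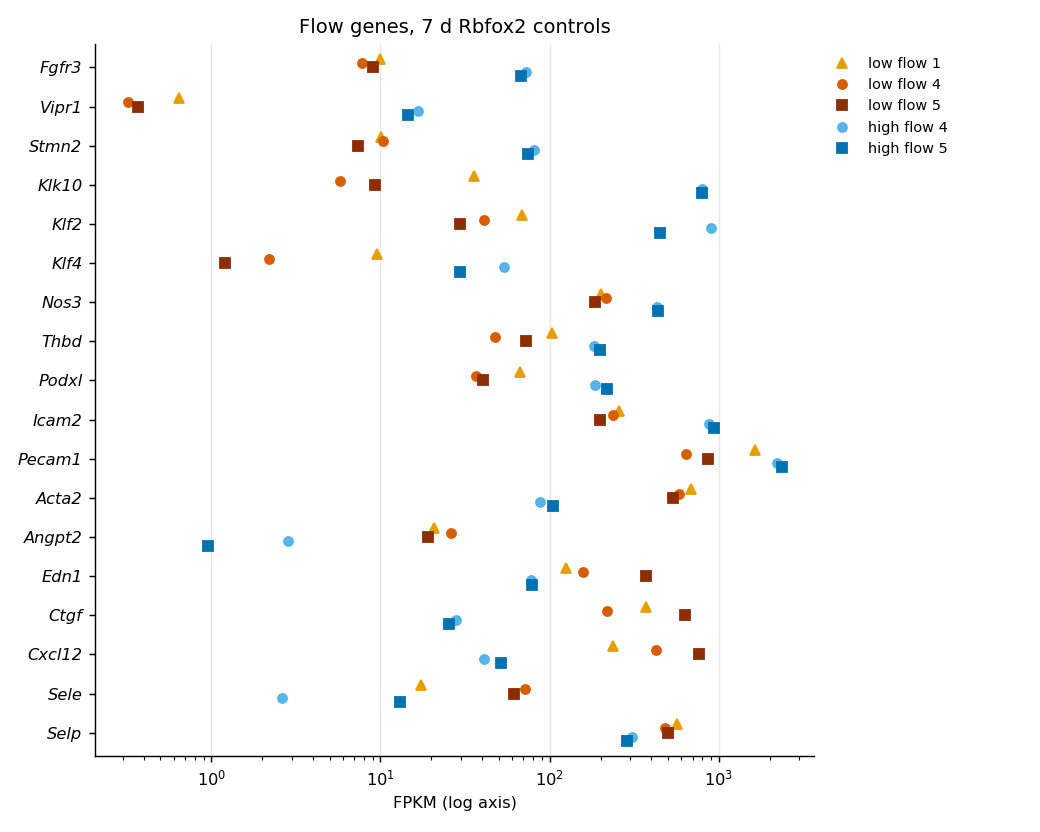
FPKM of 18 genes in each of the 5 libraries, on a log axis, where triangles mark low flow 1, circles the number 4 and squares the number 5, with low flow in orange to brown and high flow in blue. The low flow libraries lie below both high flow libraries for the upper 11 genes and above them for the lower 7, and among the upper genes low 1 is the low flow library nearest to high flow for all but Stmn2 and Nos3.

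Next to these 3, the genes with the lowest unadjusted p that were lower at low flow were Kctd12, Creb3l1, Ass1, Icam2, Tppp3, Tppp and Klf2, none of which passed the adjustment over 5 libraries. Ass1, which makes the arginine precursor argininosuccinate and so feeds nitric oxide synthesis, was at 10.2, 8.4 and 11 FPKM at low flow and 46.9 and 51.9 FPKM at high flow. Creb3l1, a membrane-bound transcription factor, was at 8.48, 7.04 and 7.33 FPKM at low flow and 35 and 32.9 FPKM at high flow. Tppp and its relative Tppp3, both tubulin-binding proteins like Stmn2, were at 4.48, 4.78 and 3.31 FPKM at low flow and 18.9 and 16.5 FPKM at high flow and at 20.4, 25.6 and 23.7 FPKM at low flow and 137 and 91.5 FPKM at high flow. For Ass1 and Creb3l1 the libraries of each group lay close together, while Tppp3 differed between both high flow libraries. The 10 genes that were higher at low flow with the lowest unadjusted p were Acta2, Ctgf, Arhgap22, Ltbp2, Krt18, Angpt2, Atp6v0d2, Ifi204, Arhgap28 and Fkbp5. Krt18, a keratin of simple epithelia, was at 189, 156 and 187 FPKM at low flow and 59.4 and 57 FPKM at high flow. Arhgap22 and Arhgap28, GTPase-activating proteins that switch off small GTPases, were at 14, 19.1 and 22.1 FPKM at low flow and 3.29 and 2.1 FPKM at high flow and at 7.95, 11.5 and 11 FPKM at low flow and 2.47 and 1.55 FPKM at high flow. Fkbp5, a glucocorticoid-responsive chaperone partner, was at 22.2, 22.4 and 23.7 FPKM at low flow and 6.51 and 7.96 FPKM at high flow. Each of these 20 genes had non-overlapping groups over the 5 libraries, and each was called in the same direction without low 1. The selection by p over the same libraries largely fixes both.

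The genes that high shear is known to induce were lower at low flow. Of the 12 tested members of that list, 9 were below both high flow libraries in all 3 low flow libraries, beside 16% of all genes, and 1 was above. Without low 1, 9 were called lower and 1 higher, and the list's median log2 fold-change was -1.28 over 5 libraries and -1.65 without low 1. Klf2 (chr8:74842932-74845555, forward strand) was at 69, 41.1 and 29.4 FPKM at low flow and 903 and 448 FPKM at high flow, and its log2 fold-change was -3.95 ± 0.47 over 5 libraries (unadjusted p = 0.000125, adjusted p = 0.136) and -4.29 ± 0.40 without low 1 (adjusted p = 0.003). Klf4, its close relative, was at 9.48, 2.21 and 1.2 FPKM at low flow and 53.4 and 29.5 FPKM at high flow, so that low 1 lay between the other low flow libraries and high flow, and its log2 fold-change moved from -3.37 to -4.62 when low 1 was left out. The level of Nos3, the endothelial nitric oxide synthase, was 202, 215 and 186 FPKM at low flow and 429.8 and 436 FPKM at high flow, with little spread within either group (-1.20 ± 0.25 over 5 libraries, -1.15 ± 0.16 without low 1). Thbd, the thrombomodulin that turns thrombin towards protein C, was at 104, 47.5 and 72.8 FPKM at low flow and 183 and 199.6 FPKM at high flow. Podxl, a sialomucin of the luminal membrane, was at 66.7, 36.9 and 40.4 FPKM at low flow and 187 and 219.8 FPKM at high flow. The water channel Aqp1, the inhibitory Smads Smad6 and Smad7 and the quinone reductase Nqo1 were also lower without overlap and called without low 1. Hmox1, the haem oxygenase, went the other way, at 6.53, 26.6 and 10.2 FPKM at low flow and 3.27 and 1.86 FPKM at high flow (log2 fold-change without low 1 2.79, adjusted p = 0.0249). The prostaglandin transporter Slco2a1 overlapped between the groups, and Cyp1a1, Nppc and Ptgds had too few counts to be tested. The letters CACCC, the core that KLF factors bind, stood on either strand in 8 of the 10 promoters of the list that the RefSeq table holds (80%) and in 57.5% of all 32851 promoters of the same length.

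Lower values of a gene in a bulk flush can come from fewer cells of a type or from less of the transcript per cell, and these cannot be told apart here. The 17 endothelial identity genes together held 1.32% of counts in low 1, 0.701% in low 4 and 0.726% in low 5, and 1.82% and 1.89% in high 4 and high 5, and every one of the 17 had at least 3 counts in all 5 libraries. Of these genes, 10 were lower without overlap and 1 was higher, and 11 were called lower and 3 higher without low 1. The platelet and endothelial adhesion molecule Pecam1 was at 1645, 642 and 861 FPKM at low flow and 2213 and 2357 FPKM at high flow. Icam2, a ligand of leukocyte integrins that resting endothelium carries, was at 258, 236 and 198 FPKM at low flow and 874 and 938 FPKM at high flow (-2.07 ± 0.24, unadjusted p = 0.0001). Tek, the angiopoietin receptor, was at 100.4, 108 and 77.9 FPKM at low flow and 275 and 269.7 FPKM at high flow. Vwf, the clotting factor stored in endothelial granules, was at 385, 51.8 and 69.6 FPKM at low flow and 467 and 520 FPKM at high flow, and its log2 fold-change was -1.66 over 5 libraries and -3.06 without low 1. In Vwf low 1 was much closer to high flow than to its own group, while in Pecam1 it lay between the groups, somewhat nearer to high flow. The members of the list did not all have the same direction. The sialomucin Emcn was higher at low flow (158, 222 and 278 FPKM at low flow and 80.3 and 72.8 FPKM at high flow), and the VEGF receptors Kdr (1.53, 15.7 and 6.43 FPKM at low flow, 1.64 and 1.59 FPKM at high flow) and Flt1 (6.08, 34.9 and 15.4 and 7.27 and 6.85 FPKM) were called higher without low 1, with low 1 at the level of high flow in both. Esam, Robo4 and Sox17 overlapped between the groups.

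Genes of arterial identity and Notch signalling were mostly lower at low flow as well. Of 16 tested members 9 were lower without overlap and 2 higher, the median log2 fold-change was -0.94, and without low 1 edgeR called 5 lower and 1 higher among 15. The connexins split. Gja5 (connexin 40) was at 237, 315 and 164 FPKM at low flow and 467 and 462 FPKM at high flow, whereas Gja4 (connexin 37) was at 454, 498 and 477 FPKM at low flow and 183 and 270.5 FPKM at high flow. Gja1 (connexin 43), which arterial endothelium shows where flow is disturbed, was at 1.96, 104 and 28.9 FPKM at low flow and 1.49 and 1.05 FPKM at high flow, so that low 4 and low 5 stood far above high flow and low 1 only just. Without low 1 Gja4 and Gja1 were called higher (1.06 ± 0.23 and 5.64 ± 0.71) and Gja5 was not called (237, 315 and 164 FPKM at low flow and 467 and 462 FPKM at high flow, adjusted p = 0.0622). The Notch ligand Jag1 (16.6, 9.16 and 15.6 FPKM at low flow and 29.3 and 27.2 FPKM at high flow) and the ephrin Efnb2, an arterial marker (66.3, 59.1 and 44.3 FPKM at low flow and 108 and 134 FPKM at high flow), were lower, as were the kinase Bmx and the BMP9 receptor Acvrl1. Dll4, the Notch ligand of sprouting tip cells, was at 15, 121 and 20.1 FPKM at low flow and 10.7 and 9.67 FPKM at high flow, so that its height rested on low 4. Among 17 junction genes, 10 were lower without overlap and 3 higher, and 7 were called lower and 2 higher without low 1. The tight junction molecules Cldn5 and Jam2 were at 239.8, 193 and 98.3 FPKM at low flow and 436 and 288 FPKM at high flow and at 82.4, 33.6 and 40.4 FPKM at low flow and 165 and 158 FPKM at high flow, and both were called lower without low 1.

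Genes that low shear or inflammation is known to raise in endothelium were higher in part. Over 15 tested members 8 were higher without overlap (24.9% of all genes were) and 1 lower, the median log2 fold-change was 1.41 over 5 libraries and 1.73 without low 1, and without low 1 edgeR called 9 higher and 1 lower. The members were not alike. Angpt2, the ligand that antagonises Tek, was at 20.8, 26.2 and 19 FPKM at low flow and 2.83 and 0.953 FPKM at high flow (3.45 ± 0.54 over 5 libraries, unadjusted p = 0.000564). The vasoconstrictor endothelin Edn1 was at 125, 157 and 371 FPKM at low flow and 77.3 and 78.9 FPKM at high flow. Ctgf, a matricellular protein and YAP target, was at 369.9, 217 and 633 FPKM at low flow and 28 and 25.3 FPKM at high flow (3.86 ± 0.57, unadjusted p = 0.000418). For these genes low 1 lay within or near the range of low 4 and low 5. The leukocyte adhesion molecules did not move together. Sele and Selp, the E- and P-selectins, were at 17.4, 71.1 and 61.5 FPKM at low flow and 2.62 and 13 FPKM at high flow and at 565, 480.3 and 498 FPKM at low flow and 307 and 285 FPKM at high flow. Vcam1 was at 766, 413 and 642 FPKM at low flow and 422 and 562 FPKM at high flow and Icam1 at 392, 195 and 260.2 FPKM at low flow and 225 and 285 FPKM at high flow, so that both overlapped, with log2 fold-changes of 0.06 ± 0.28 and -0.20 ± 0.23 without low 1. Cxcl1, a neutrophil chemokine, was lower, at 43.5, 17.9 and 16.5 FPKM at low flow and 46.9 and 77.6 FPKM at high flow. The YAP target Ankrd1 was at 0.26, 12.1 and 20.1 FPKM at low flow and 0.126 and 0.0548 FPKM at high flow, where low 1 was near high flow while low 4 and low 5 were far above. Cyr61 overlapped because low 1 (226 FPKM) lay between high 5 and high 4, and was called higher without it. CACCC stood in 6 of the 9 promoters of this list in the table (66.7%).

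Genes of sprouting endothelium differed by member. Of 13 tested, 4 were higher and 2 lower without overlap, and 5 of 12 were called higher and 1 lower without low 1, while the median log2 fold-change went from 1.95 to 0.76. Esm1, the endocan of tip cells, was at 0.154, 33.8 and 127 FPKM at low flow and 0.0693 and 0 FPKM at high flow. Apln, the apelin ligand, was at 0.1, 11.8 and 29.2 FPKM at low flow and 0.226 and 0.237 FPKM at high flow, and the placental growth factor Pgf at 1.48, 14.5 and 21.1 FPKM at low flow and 1.48 and 0.998 FPKM at high flow. All 3 were called higher without low 1, at log2 fold-changes of 10.80, 6.42 and 3.80, and low 1 was at or close to the level of high flow in all of them. Vegfa was lower, at 14.6, 6.96 and 8.03 FPKM at low flow and 18.7 and 24.8 FPKM at high flow. Kit, the receptor of stem cell factor and a mast cell marker, was at 2.11, 59.96 and 40.01 FPKM at low flow and 0.0945 and 0 FPKM at high flow, but the other 6 mast cell genes were below the count filter, the highest of them Cma1 with 2.33 FPKM in low 1.

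**Figure D2:**
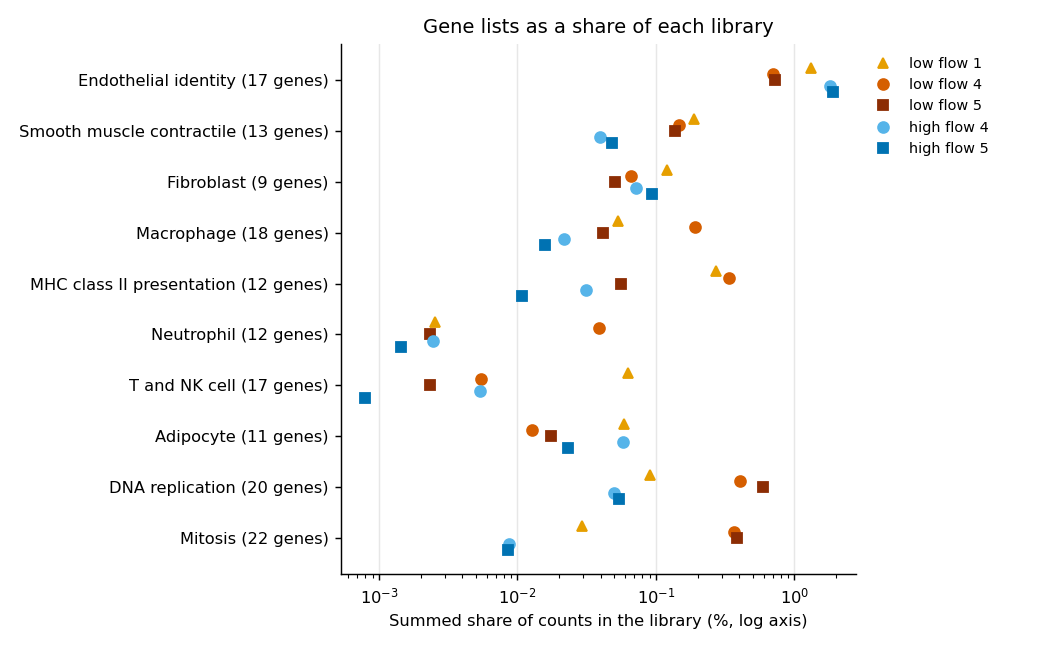
Summed share of each library's counts, in percent on a log axis, held by 10 gene lists (the number of genes found is in brackets), with the symbols of the 5 libraries as in the plot of flow genes. The endothelial share is lowest in low 4 and low 5, the smooth muscle share is above high flow in all 3 low flow libraries, T and NK cell genes stand out in low 1, and the mitosis and DNA replication shares of low 4 and low 5 stand above those of low 1 and high flow.

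Of the leukocyte genes, most of those of macrophages and of MHC class II presentation were higher at low flow without overlap, unevenly between the libraries. The 18 macrophage genes held 0.0534%, 0.193% and 0.0418% of counts in low 1, low 4 and low 5, and 0.0219% and 0.0158% in high 4 and high 5. Of the 18, 12 were higher without overlap and 1 lower, the median log2 fold-change was 3.66, and without low 1 edgeR called 5 of 16 higher. Called without low 1 were Cd68, Mrc1, Cx3cr1, Ccr2 and Lyz2. The lysosomal protein Cd68 was at 15.3, 37.7 and 9.2 FPKM at low flow and 1.81 and 0.206 FPKM at high flow and the lysozyme Lyz2 at 195, 1019 and 249 FPKM at low flow and 86.5 and 31.6 FPKM at high flow. Ccr2, the monocyte chemokine receptor, was at 4.13, 47.4 and 11.2 FPKM at low flow and 0.867 and 1.21 FPKM at high flow and Cx3cr1, the fractalkine receptor, at 5.11, 5.78 and 2.35 FPKM at low flow and 0.189 and 0 FPKM at high flow. Low 4 was the highest library for all 4 of these genes, and in Cx3cr1 low 1 stood almost level with it. Trem2, a marker of lipid-laden macrophages, was at 2.17, 2.08 and 0 FPKM at low flow and 0.288 and 0 FPKM at high flow and overlapped. The 12 MHC class II presentation genes held 0.27%, 0.335% and 0.0564% of counts at low flow and 0.0313% and 0.0108% at high flow, 11 of 12 were higher without overlap, and 4 of 11 were called without low 1. The invariant chain Cd74 was at 1443, 1275 and 242 FPKM at low flow and 116 and 30.4 FPKM at high flow, and H2-Ab1 at 373, 709 and 106 FPKM at low flow and 56.8 and 25.8 FPKM at high flow. For these, low 5 lay nearer to high flow than to the other low flow libraries. Ctss, the protease that degrades the invariant chain, was at 29.6, 187 and 23.5 FPKM at low flow and 6.84 and 2.13 FPKM at high flow. The median of this list was 3.43, or 3.21 with H2-Oa, which had no count at high flow, set to its lower bound.

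Low 4 also carried a set of myeloid genes at levels that the other low flow libraries did not reach. Il1b, the interleukin-1 beta precursor, was at 2.14, 274 and 20.4 FPKM at low flow and 0.976 and 0 FPKM at high flow, and its decoy receptor Il1r2 at 0.654, 87.4 and 3.96 FPKM at low flow and 0.0566 and 0 FPKM at high flow. The neutrophil genes Csf3r and Cxcr2 were at 0.99, 62.4 and 3.78 FPKM at low flow and 0.631 and 0.0275 FPKM at high flow and at 0.104, 24.1 and 1.47 FPKM at low flow and 0.234 and 0.092 FPKM at high flow, while S100a8 and S100a9 were at 4.61, 38.6 and 1.95 FPKM at low flow and 4.37 and 3.57 FPKM at high flow and at 7, 58.2 and 4.5 FPKM at low flow and 4.93 and 10.6 FPKM at high flow. In all 4 genes low 4 stood far above every other library. Spp1, osteopontin, was at 2.81, 113 and 8.42 FPKM at low flow and 0 and 3.16 FPKM at high flow. Of 9 neutrophil genes tested, 1 (Csf3r) was higher without overlap, and 2 (Csf3r and Cxcr2) were called without low 1. Of 8 dendritic cell genes tested, 5 were higher and 1 lower without overlap and, without low 1, 3 of 7 were called higher and 1 lower, while the list held 0.00426%, 0.0217% and 0.00365% of counts at low flow and 0.00446% and 0.0037% at high flow, so that only low 4 stood above high flow in the summed share. Flt3 and Cd209a were among the 5, with Flt3 at 0.172, 1.36 and 0.386 FPKM against no count at high flow (at least 9.58-fold higher, with 3 counts per library as the floor) and Cd209a at 2.25, 82.5 and 10.4 FPKM at low flow and 0.608 and 0.199 FPKM at high flow. T cell genes followed low 1 instead. Of 15 T and NK cell genes tested, 4 were higher without overlap (24.9% of all genes were) and none lower. The median log2 fold-change of that list was 3.00 over 5 libraries and 0.26 without low 1. Cd3e was at 24.9, 0.45 and 0 FPKM at low flow and 2.26 and 0 FPKM at high flow and Cd8a at 28, 1.54 and 0.326 FPKM at low flow and 2.08 and 0 FPKM at high flow, none of 15 T and NK cell genes was called by edgeR over 5 libraries (1 had an unadjusted p below 0.05, and DESeq2 called 1, Klrb1c), and the list held 0.0627% of counts in low 1 and at most 0.00542% in any other library.

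Chemokines that were higher at low flow came from different groups. Cxcl12, the ligand of Cxcr4, was at 236, 427 and 760.3 FPKM at low flow and 40.7 and 51.4 FPKM at high flow (3.29 ± 0.60, unadjusted p = 0.00133). Cxcl10, a ligand for T cells that interferon induces, was at 7.94, 4.9 and 7.17 FPKM at low flow with no count at high flow, at least 26.1-fold higher. The membrane-bound chemokines Cxcl16 and Cx3cl1 were at 59.2, 69.9 and 61.8 FPKM at low flow and 30.3 and 33.7 FPKM at high flow and at 85.5, 56.9 and 47.1 FPKM at low flow and 29.9 and 31.7 FPKM at high flow. Ccl6 and Ccl9 were higher in all 3 libraries and highest in low 4, and Ccl2 overlapped, at 0.182, 7.13 and 5.71 and 1.33 and 0 FPKM. Of 14 chemokines tested 7 were higher without overlap and 1 lower, and 6 of 11 were called higher without low 1 and 1 lower. Cxcl10 is also an interferon-stimulated gene, and of these 3 of 21 were higher and 2 lower without overlap, with a median log2 fold-change of 0.02. Irf1 and Ifit3 were called lower without low 1, and Isg15 and Ifit1 were not called by either fit. The core of the interferon-stimulated response element, the letters TTTC, any 2 bases and TTTC again, stood on either strand in 10 of 21 promoters of this list in the RefSeq table (47.6%) and in 3.44% of all promoters. The promoter of Cxcl10 holds it on the opposite strand, as promoters of other genes in the list do, and it is shown here in capitals to give the sequence of the motif in 1 member that was higher (GRCm38.p6, minus strand, chr5:92349083-92349112, from RefSeq).
Cxcl10: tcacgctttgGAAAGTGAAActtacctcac
Genes of MHC class I presentation did not share this height. None of 12 was called over 5 libraries by edgeR or DESeq2 or had an unadjusted p below 0.05, and 8 were called lower without low 1, among them B2m at 3384, 1630 and 1322 FPKM at low flow and 2669 and 2461 FPKM at high flow and H2-D1 at 3576, 1361 and 1374 FPKM at low flow and 2739 and 2649 FPKM at high flow, where low 1 was the highest of all 5 libraries.

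Smooth muscle genes did not all follow flow. Acta2, smooth muscle actin, was at 686, 583 and 539 FPKM at low flow and 88.2 and 105 FPKM at high flow, with a log2 fold-change of 2.54 ± 0.28 over 5 libraries (unadjusted p = 8.08e-05, adjusted p = 0.136) and 2.49 ± 0.18 without low 1 (adjusted p = 0.00181). Tagln, transgelin, was at 346, 102 and 96.4 FPKM at low flow and 28.9 and 34 FPKM at high flow. Myh11, the smooth muscle myosin heavy chain, which marks contractile cells most narrowly, was at 2.46, 1.41 and 0.81 FPKM at low flow and 2.41 and 2.48 FPKM at high flow, and calponin Cnn1 was at 16, 2.4 and 3.68 FPKM at low flow and 3.69 and 3.13 FPKM at high flow, so that neither was set apart by flow. Over the whole list of 13 genes, 3 were higher and 2 lower without overlap and the summed share was 0.19%, 0.146% and 0.137% at low flow and 0.0395% and 0.0485% at high flow. Of 9 fibroblast genes 4 were higher and 1 lower without overlap and the median change was 0.59 (log2), and without low 1 edgeR called 1 higher and 1 lower. Lum, one of the 4, was at 64.5, 53.3 and 23.4 FPKM at low flow and 11.2 and 9.25 FPKM at high flow, and Pi16, the lower one, at 52.2, 21.2 and 41.2 FPKM at low flow and 106 and 121 FPKM at high flow, while Dcn and Col1a2 overlapped between the groups. Fat genes were highest in low 1 and high 4, with Ucp1 at 48.2 and 60.7 FPKM in these 2 and at most 5.49 FPKM elsewhere, that is in 1 library of each flow group.

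Matrix genes differed gene by gene. Elastin, Eln, was at 115, 39.1 and 233 FPKM at low flow and 527 and 1146 FPKM at high flow and Lox, which crosslinks elastin and collagen, at 38.7, 41.7 and 49 FPKM at low flow and 135 and 143 FPKM at high flow. Fbln5, which tethers elastic fibres, was at 136, 28.6 and 75.8 FPKM at low flow and 172 and 286 FPKM at high flow and the proteoglycan Bgn at 637, 333 and 522 FPKM at low flow and 1087 and 1207 FPKM at high flow. All 4 were lower without overlap, and Lox, Fbln5 and Bgn were called lower without low 1, whereas Eln was not (-2.65 ± 0.87, adjusted p = 0.0749). Thbs1, a platelet and matrix glycoprotein that binds latent TGF-beta, was higher, at 421, 818 and 1860 FPKM at low flow and 93.5 and 185 FPKM at high flow. The matrix protein Ltbp2 was higher as well, at 14.2, 5.32 and 13 FPKM at low flow and 0.657 and 0.935 FPKM at high flow. Of 16 collagen genes tested 4 were higher and 4 lower without overlap, and without low 1 edgeR called 4 higher and 3 lower. Col8a1, a short-chain collagen of the intima, was at 89.3, 169.6 and 132 FPKM at low flow and 34.2 and 42.2 FPKM at high flow, while the basement membrane chains Col4a3 and Col4a4, neighbours that share a promoter region, were at 6.64, 1.27 and 3.42 FPKM at low flow and 20.7 and 34.2 FPKM at high flow and at 5.58, 1.32 and 1.66 FPKM at low flow and 15.3 and 18 FPKM at high flow. The widespread basement membrane chains Col4a1 and Col4a2 were at 112, 115 and 125 FPKM at low flow and 88.3 and 107 FPKM at high flow and at 47.8, 56.8 and 57.6 FPKM at low flow and 32 and 48.6 FPKM at high flow and were not called without low 1. Among 21 matrix proteases and inhibitors 9 were higher without overlap and 2 lower, and 6 of 20 were called higher and 3 lower without low 1. Mmp14, a membrane-bound collagenase, was at 36.7, 321 and 86.4 FPKM at low flow and 24.1 and 22.1 FPKM at high flow. The metalloproteases Adam8 and Adam12 were at 1, 18.5 and 4.29 FPKM at low flow and 0.0235 and 0.123 FPKM at high flow and at 0.0881, 11.6 and 5.24 FPKM at low flow and 0.0361 and 0 FPKM at high flow, and the macrophage elastase Mmp12 at 7.45, 30.2 and 2.57 FPKM at low flow and 0.275 and 0 FPKM at high flow. In these protease genes low 4 was the highest library. The summed share of macrophage genes was highest in low 4 too, and its part in these differences was not tested.

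Cell cycle genes were set apart by flow in every member of the mitosis list. All 22 mitosis genes were higher at low flow without overlap (24.9% of all genes were), 22 were called without low 1, 21 were called by DESeq2 over 5 libraries, and none passed edgeR's adjustment over 5 libraries, where each of the 22 had an unadjusted p below 0.05. Their median log2 fold-change was 4.95 over 5 libraries and 5.50 without low 1. Together they held 0.0292% of counts in low 1, 0.364% in low 4 and 0.388% in low 5, and 0.00869% and 0.00856% in high 4 and high 5. Low 1 therefore lay between the groups, above high flow and well below the other low flow pools. Mki67, a marker of cycling cells, was at 1.77, 16.8 and 28.8 FPKM at low flow and 0.951 and 0.653 FPKM at high flow. The mitotic kinase Cdk1 was at 2.4, 62.4 and 64.4 FPKM at low flow and 0.8 and 1.37 FPKM at high flow and its partners Ccnb1 and Ccnb2 at 6.8, 112 and 51.5 FPKM at low flow and 2.31 and 1.1 FPKM at high flow and at 10.6, 121 and 69.6 FPKM at low flow and 1.12 and 2.29 FPKM at high flow. The 20 DNA replication genes were all higher without overlap and all called without low 1, with a median log2 fold-change of 2.92 over 5 libraries. Mcm5, of the replicative helicase, was at 13.5, 109 and 126 FPKM at low flow and 5.57 and 5.31 FPKM at high flow, and the ribonucleotide reductase subunit Rrm2 at 16.8, 70.9 and 156 FPKM at low flow and 2.27 and 1.31 FPKM at high flow. Of the G1 regulators, the cyclins Ccne1 and Ccne2 were higher (1.06, 10.5 and 25.2 FPKM at low flow and 0.412 and 0.0981 FPKM at high flow, and 2.6, 15.1 and 73.6 FPKM at low flow and 1.3 and 1.03 FPKM at high flow), Ccnd2 was lower (50.1, 26.9 and 33.8 FPKM at low flow and 79.2 and 109.6 FPKM at high flow), and the CDK inhibitor Cdkn1c (66.5, 7.26 and 12.1 and 38.5 and 41.7 FPKM) was called lower without low 1. Myc was at 39.8, 112 and 97.8 FPKM at low flow and 10.4 and 9.78 FPKM at high flow and the AP-1 member Fosl1 at 0.959, 38 and 14.1 FPKM at low flow and 0.0901 and 0.00512 FPKM at high flow, and both were called higher without low 1.

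**Figure D3:**
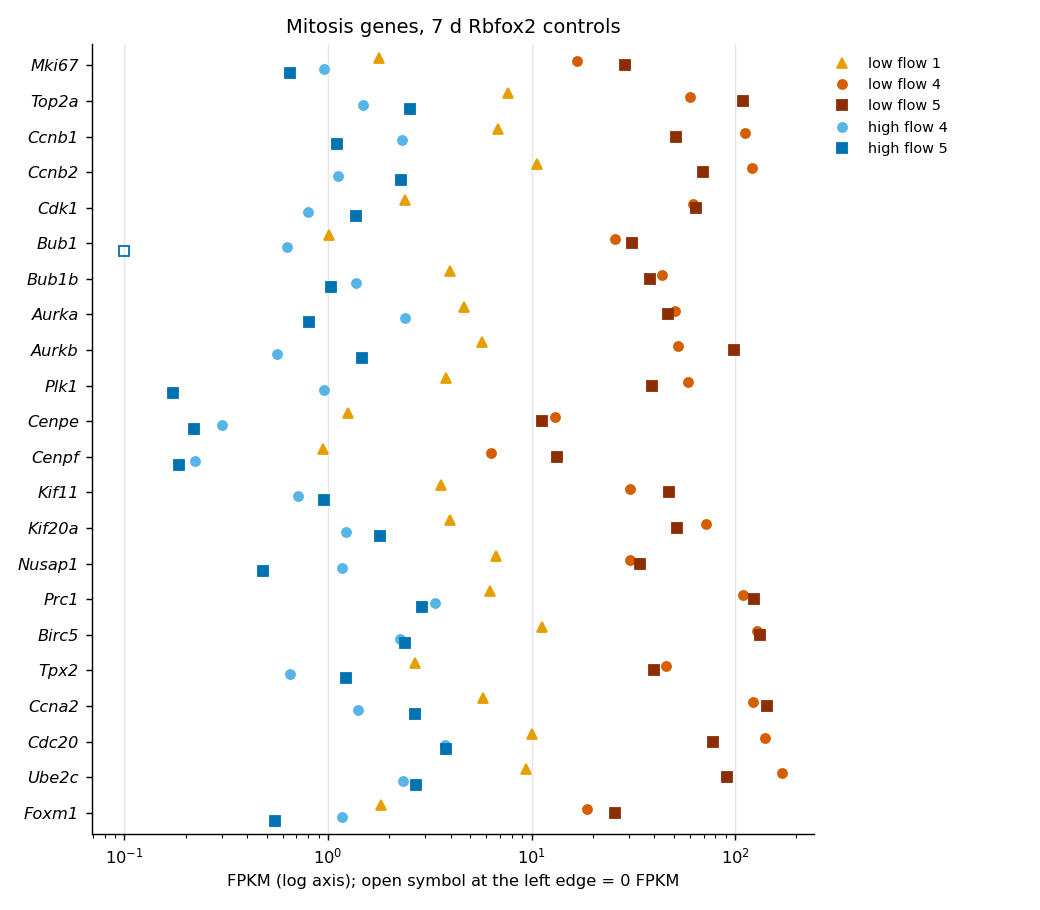
FPKM of the 22 mitosis genes in the 5 libraries on a log axis, with the symbols of the plot of flow genes and an open symbol at the left edge for 0 FPKM. In every gene low 4 and low 5 lie at the right, both high flow libraries at the left and low 1 in between.

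Many mitotic promoters carry the cell cycle homology region, TTTGAA, through which the DREAM and MuvB complexes silence them in resting cells and release them towards mitosis. The letters stood on either strand in 13 of 18 promoters of the mitosis list (72.2%, 17 of 22 genes matched in the RefSeq table of 250 bases before to 50 after the start), in 3 of 21 promoters of DNA replication genes (14.3%), in 1 of 13 promoters of G1 genes (7.69%) and in 17.9% of all promoters. A match does not make a site. Windows of 30 bases around a match are shown for 6 of the genes that hold the motif, to give its surroundings, with the motif in capitals, written in the direction of the gene (GRCm38.p6).
Ccnb2: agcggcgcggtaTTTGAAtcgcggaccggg
Cdk1: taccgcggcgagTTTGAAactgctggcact
Cdc20: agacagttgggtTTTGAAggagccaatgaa
Cenpf: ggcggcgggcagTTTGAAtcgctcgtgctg
Plk1: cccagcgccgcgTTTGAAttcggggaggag
Top2a: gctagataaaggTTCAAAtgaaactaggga
They lie at chr9:70421533-70421562 (minus strand), chr10:69352910-69352939 (minus), chr4:118437344-118437373 (minus), chr1:189688067-189688096 (minus), chr7:122159453-122159482 (plus) and chr11:99024195-99024224 (minus), in that order. The Top2a window holds the motif on the opposite strand, as TTCAAA.

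Genes of vascular tone changed in both directions. The prostaglandin synthases were opposed: Ptgs1 was at 123, 40.2 and 52.1 FPKM at low flow and 264 and 259 FPKM at high flow and the inducible Ptgs2 at 25.9, 133 and 146 FPKM at low flow and 8.32 and 4.84 FPKM at high flow. Both were called without low 1, at log2 fold-changes of -2.54 ± 0.20 and 4.37 ± 0.30. Ace, the angiotensin-converting enzyme, was at 174, 42.8 and 75.7 FPKM at low flow and 284 and 344 FPKM at high flow. Ddah1, which degrades the nitric oxide synthase inhibitor ADMA, was at 10.3, 59.8 and 91.2 FPKM at low flow and 3.67 and 5.89 FPKM at high flow, while its relative Ddah2 was at 79.9, 64.6 and 58.7 FPKM at low flow and 121 and 105 FPKM at high flow. Of 16 vasoactive genes tested, 6 were higher and 8 lower without overlap, and 4 of 14 were called higher and 6 lower without low 1. Coagulation genes were likewise mixed. The protein C receptor Procr was at 328, 1337 and 1489 FPKM at low flow and 225 and 220.2 FPKM at high flow, against the fall of its partner Thbd described above, and Plaur, the urokinase receptor, was at 73.3, 258 and 162 FPKM at low flow and 68.8 and 54.5 FPKM at high flow. Plau, urokinase itself, was at 0.137, 3.5 and 1.01 FPKM at low flow with no count at high flow, at least 14.5-fold higher. In the TGF-beta and BMP list 10 of 21 genes were lower and 3 higher without overlap, and 9 were called lower and 1 higher without low 1. The BMP target Id1 was at 48.9, 40.1 and 18.9 FPKM at low flow and 274 and 136 FPKM at high flow and Id3 at 994, 349 and 328 FPKM at low flow and 1258 and 1025 FPKM at high flow, the receptor Bmpr2 at 11.9, 3.15 and 4.61 FPKM at low flow and 13.4 and 14.6 FPKM at high flow, while the ligand Bmp6 overlapped between the groups.

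Metabolic lists differed among themselves. In cholesterol synthesis 12 of 17 genes were higher without overlap and none lower, and 10 were called higher without low 1. Squalene epoxidase, Sqle, was at 2.39, 22.1 and 23.1 FPKM at low flow and 0.469 and 0.853 FPKM at high flow, and Idi1, the isopentenyl diphosphate isomerase, at 12.9, 38.2 and 55.1 FPKM at low flow and 5.56 and 6.24 FPKM at high flow. Of 18 glycolysis genes 11 were higher without overlap, and 7 of 17 were called higher without low 1. Pgk1 was at 89.1, 310.1 and 280 FPKM at low flow and 55.7 and 45.7 FPKM at high flow and Ldha at 458, 939 and 771 FPKM at low flow and 337 and 319 FPKM at high flow. Of 18 respiratory chain genes 7 were higher without overlap, with 4 of 17 called higher and 4 lower without low 1 and the median change at 0.15 (log2), and of 17 fatty acid handling genes 1 was higher and 1 lower without overlap and 2 of 16 were called lower without low 1. Asns, the asparagine synthetase that ATF4 induces, was at 6.39, 22.2 and 39.95 FPKM at low flow and 1.37 and 0.299 FPKM at high flow. Among 18 ER stress genes 8 were higher and 2 lower without overlap, and 10 were called higher and 3 lower without low 1. DESeq2 over 5 libraries called 2 higher and 1 lower. Of 15 clock genes 6 were lower and 1 higher without overlap, no member was called by DESeq2 or edgeR over 5 libraries (4 had an unadjusted p below 0.05), and without low 1 edgeR called 9 lower and none higher. Dbp was at 99.7, 15.5 and 29.2 FPKM at low flow and 105 and 195 FPKM at high flow and Per2 at 14.3, 4 and 6.01 FPKM at low flow and 19.7 and 24.7 FPKM at high flow, while the activator Arntl was at 6.08, 11 and 9.52 FPKM at low flow and 3.52 and 0.258 FPKM at high flow. Low 1 had Dbp, Per1 and Cry2 at the level of high flow.

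**Figure D4:**
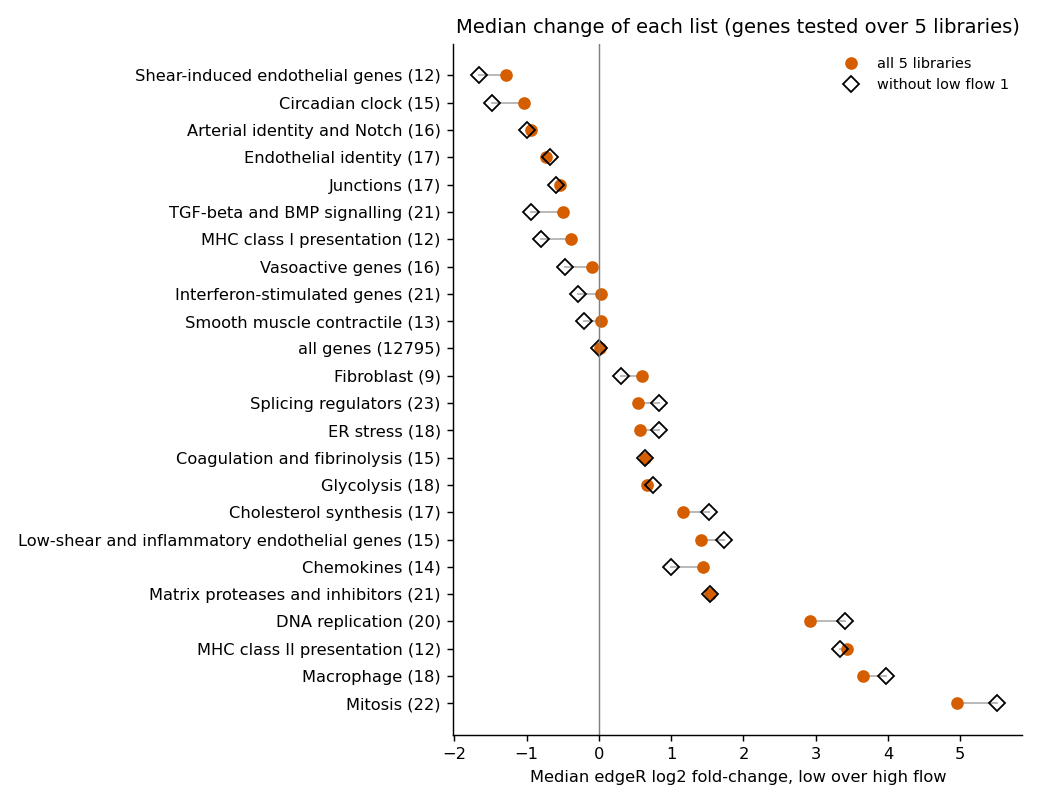
Median log2 fold-change, low over high flow, of 24 gene groups as fitted by edgeR over all 5 libraries (filled circles) and without low flow 1 (open diamonds), with the number of genes tested over 5 libraries in brackets. The shear-induced list is lowest (-1.28 and -1.65) and the mitosis list highest (4.95 and 5.50) of the groups drawn.

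RNA-binding proteins that govern splicing, the subject of the study, were measured in the same libraries. Rbfox2 was at 3.27, 5.73 and 2.74 FPKM at low flow and 3.66 and 3.84 FPKM at high flow, and its log2 fold-change was -0.03 ± 0.39 over 5 libraries and 0.13 ± 0.39 without low 1, so that its mRNA did not differ beyond the spread. Rbfox1 and Rbfox3 had almost no counts. Of 23 splicing regulators tested, 8 were higher and 2 lower without overlap, and without low 1 edgeR called 13 higher and 2 lower. Ptbp1, the polypyrimidine tract binding protein, was at 77.5, 215 and 202 FPKM at low flow and 67.1 and 67.6 FPKM at high flow, Hnrnpa1 at 60.6, 178 and 126 FPKM at low flow and 29.97 and 32.4 FPKM at high flow and Srsf2 at 153, 439.6 and 419.9 FPKM at low flow and 147 and 165 FPKM at high flow. Low 1 was near high flow for Ptbp1 and Srsf2. Mbnl1 and Mbnl2 were not called by either fit. Nova2, an endothelial and neuronal splicing factor, was at 2.79, 0.857 and 0.306 FPKM at low flow and 2.79 and 2.65 FPKM at high flow and Srsf5 at 379, 207 and 205 FPKM at low flow and 315 and 293 FPKM at high flow, and both were called lower without low 1. Of the genes whose exon use the study followed, Fn1 was at 75.1, 64.8 and 130.5 FPKM at low flow and 60.5 and 62.8 FPKM at high flow and Fbln2 at 162, 176 and 212 FPKM at low flow and 286 and 352 FPKM at high flow as whole genes. Levels of single exons were not analysed here.

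By a rule of size, the genes with the largest fitted changes among those called without low 1 and not overlapping over the 5 libraries were chosen after the values were seen. Among those higher at low flow were Amica1, Mefv, Esm1, Kifc1, Gpr171 and Il1r2, of which all but Esm1 and Il1r2 had no count at high flow. Kifc1, a mitotic kinesin, was at 0.499, 7.58 and 8.86 FPKM at low flow, at least 52.2-fold above the floor of 3 counts per library at high flow. Mefv, pyrin, and Amica1, a leukocyte junction molecule, were high in low 4 alone, at 0.0204, 14.7 and 0.887 and 0.443, 20.4 and 1.09 FPKM. At the other end Klk10, a secreted serine protease, was at 35.6, 5.76 and 9.29 FPKM at low flow and 793 and 797 FPKM at high flow, with a log2 fold-change of -5.65 ± 0.81 over 5 libraries and -6.77 ± 0.31 without low 1 (adjusted p = 0.00123). All 3 low flow libraries lay far below both high flow libraries for this gene. The alpha-2 adrenergic receptors Adra2a and Adra2c were at 13.3, 1.21 and 0.901 FPKM at low flow and 49.9 and 28 FPKM at high flow and at 1.13, 0 and 0 FPKM at low flow and 7.58 and 6.98 FPKM at high flow. Prrt4 was at 6.96, 1.91 and 2.1 FPKM at low flow and 68.8 and 66.9 FPKM at high flow and Fndc1 at 8.3, 1.21 and 1.58 FPKM at low flow and 55.2 and 75.8 FPKM at high flow. Serpina1d and Serpina1b, near-identical copies whose reads can be assigned to one another, were at 22.1 and 15 and at 9.4 and 6.89 FPKM at high flow and at most 0.46 FPKM at low flow, so that the split between them is uncertain.

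The same 5 libraries served both comparisons that follow. The flow change at 7 days was set against that of untreated arteries 48 hr after the same operation. Those 6 libraries, 3 from low flow and 3 from the other side, came from male C57BL/6J mice aged 6 to 7 weeks, without the reporter or floxed alleles, and were read at 100 bp instead of 150 bp with 4260059 to 6794904 counts each, so that time, sex, age, genotype and read length cannot be told apart. No gene of 12835 differed between the changes by edgeR (0%), while 1077 had an unadjusted p below 0.05, and DESeq2 called 33 of the 1260 genes its own filter kept, 1 with a more positive and 32 with a more negative change at 7 days. Without low 1, 16 of 12632 genes differed (0.127%), 6 with a more positive and 10 with a more negative change at 7 days, while 30 of 12641 differed without low 4, all with a more negative change, and 176 of 13050 without library C of the 48 hr low flow group, 168 of them with a more negative change. Angpt2 had one of the lowest p-values. At 48 hr it was at 104, 182 and 147 FPKM at low flow and 0.705, 1.48 and 1.23 FPKM at high flow, and its log2 fold-change was 7.73 ± 0.47 against 3.45 ± 0.54 at 7 days, and the difference of -4.44 ± 0.65 had an adjusted p of 0.0937 with low 1 and 0.0436 without it. Rin3, a Rab5 exchange factor, was lower at low flow at 7 days (9.13, 10.3 and 8.21 FPKM at low flow and 18 and 17.4 FPKM at high flow) and had 2.57, 2.54 and 5.66 FPKM at low and 2.9, 3.4 and 3.2 FPKM at high flow at 48 hr (difference -1.96 ± 0.26, adjusted p = 0.0937, and 0.0234 without low 1). For Crispld2 and Tmem55b the differences were -3.93 ± 0.56 and -2.12 ± 0.31, which passed the adjustment without low 1 (adjusted p = 0.0346 and 0.0234) and not with it (0.0937 and 0.0937). Without low 1 the cell cycle genes Ccna2 and Fanci differed the other way, with Ccna2 at 5.74, 122 and 143 FPKM at low flow and 1.4 and 2.68 FPKM at high flow at 7 days, and 12.4, 8.28 and 18.4 and 2.29, 2.71 and 2.81 FPKM at 48 hr (difference 2.85, adjusted p = 0.0266). Over the whole mitosis list the medians of the log2 fold-change were close, 4.95 at 7 days and 5.00 at 48 hr.

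Of the 20 genes with the lowest p at 7 days, 10 in each direction, 19 had the same sign of change in the earlier arteries, the exception being Fkbp5. The share of all genes with the same sign was not counted, so that this number has no background to be read against. Klf2 had 1.06, 0.539 and 4.09 FPKM at low flow and 59.2, 43.7 and 61.8 FPKM at high flow at 48 hr, a log2 fold-change of -4.28 ± 0.33. Fgfr3 changed by -3.47 ± 0.23, Stmn2 by -3.06 ± 0.22 and Acta2 by 3.62 ± 0.40, while Vipr1 was at 0.0928, 0 and 0.221 FPKM at low flow and 2.42, 3.14 and 2.78 FPKM at high flow, and for none of these 5 did the difference between the times pass the adjustment (adjusted p = 0.953, 0.842, 0.88, 0.519 and 0.653). Lyz2 stood higher at 48 hr, at 2128, 3258 and 1733 FPKM at low flow (difference -3.03 ± 1.05, adjusted p = 0.519), and macrophage genes together held 0.233% to 0.344% of counts there against the 0.0418% to 0.193% at 7 days. Fkbp5 was set apart by flow at 7 days in the controls but not at 48 hr (-0.07 ± 0.25, difference 1.51 ± 0.33, adjusted p = 0.459).

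**Figure D5:**
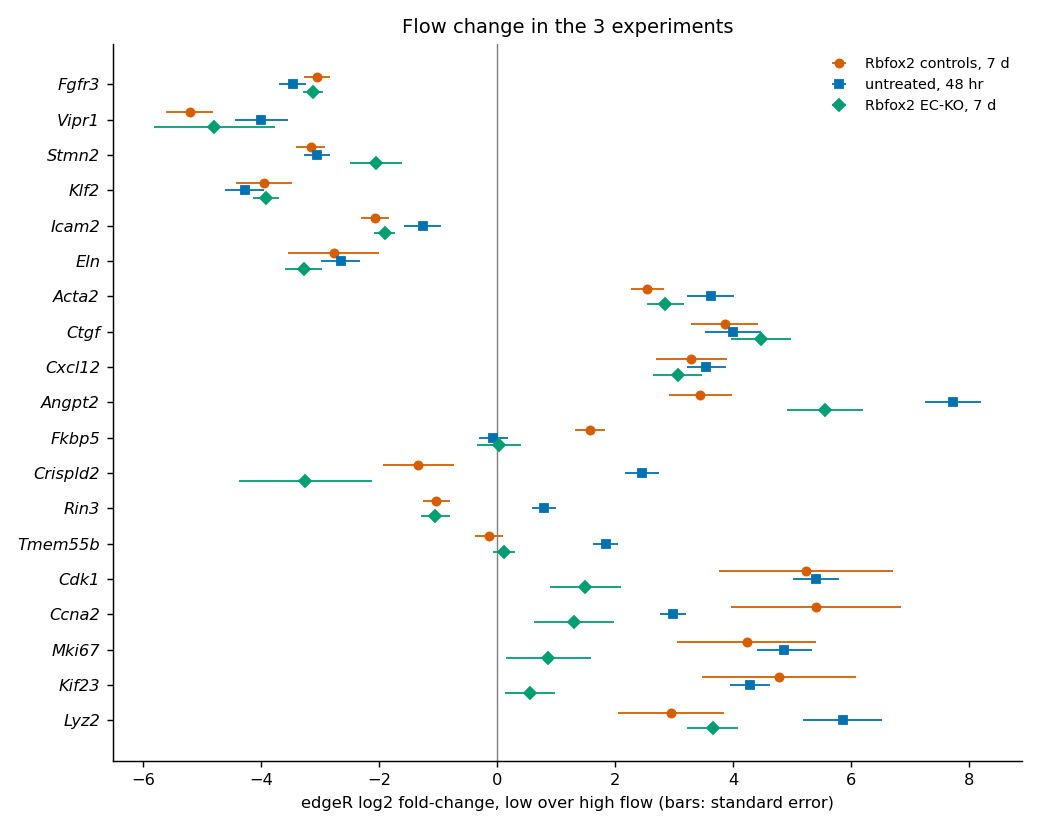
Log2 fold-change, low over high flow, with its standard error for 19 genes in the Rbfox2 controls at 7 d (circles), untreated arteries at 48 hr (squares) and Rbfox2 EC-KO arteries at 7 d (diamonds), each from its own edgeR fit. Fgfr3, Klf2, Eln, Ctgf and Cxcl12 lie together in the 3 experiments, Angpt2 and Lyz2 lie higher at 48 hr, and the cell cycle genes Cdk1, Ccna2, Mki67 and Kif23 lie nearer to 0 in EC-KO arteries.

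In Rbfox2 EC-KO arteries 7 days after ligation, with 3 low flow and 2 high flow pools and 12321796 to 18633538 counts each, Rbfox2 itself was at 1.09, 0.169 and 0.623 FPKM at low flow and 0.791 and 1.05 FPKM at high flow, below all 5 control libraries. The flow change differed between control and EC-KO for no gene of 13352 by edgeR (0%), with 538 genes at an unadjusted p below 0.05 and 19 called by DESeq2, all with a more positive change in controls. Without the control library low 1, 7 of 13251 genes differed (0.0528%), namely Spag5, Kif23, D2Ertd750e and Kpna2 with a more positive change in controls and Cp, Parm1 and Efemp1 with a more negative one, each at an adjusted p of 0.0459. Without the libraries numbered 1 of both genotypes none differed, with 2036 at an unadjusted p below 0.05. Kif23, a kinesin of the midbody, was at 2.52, 46.1 and 45.1 FPKM at low flow and 0.87 and 1.3 FPKM at high flow in controls, and at 4.42, 4.11 and 8.31 and 4.96 and 2.68 FPKM in EC-KO arteries. Cdk1 had 4.92, 9.59 and 19.7 FPKM in the EC-KO low flow and 5.71 and 2.4 FPKM in the EC-KO high flow libraries (difference 3.76 ± 1.53, unadjusted p = 0.0342, adjusted p = 0.986, and 0.088 without low 1). For mitosis genes the median in EC-KO arteries was 0.82 against 4.95 in controls. Mitosis genes took different shares of counts in the low flow controls, and low 1 of the controls, at 2.4 FPKM of Cdk1, lay below all 3 EC-KO low flow libraries. The list held 0.0363% to 0.115% of counts in EC-KO low flow libraries and 0.0173% to 0.0542% in EC-KO high flow libraries, so that EC-KO high flow lay above both control high flow libraries and EC-KO low flow below low 4 and low 5 of the controls. Fgfr3, Klf2 and Ctgf had the same direction in both genotypes (differences 0.07 ± 0.24, -0.02 ± 0.53 and -0.62 ± 0.70, adjusted p = 0.994, 1 and 0.986).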

How the data were processed

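RNA from intimal flushes was amplified from poly-A RNA with a low-input kit and read at 150 bp paired-end. The authors aligned the reads with STAR 2.5.1b to mm9 and deposited expected counts per RefSeq gene, which RSEM 1.2.15 estimates and which need not be whole. An entry without a gene name (0.0459% to 0.0614% of counts) was left out of library sizes and tests. A further 184 columns of values, which belong to other samples, other units or other runs of the same libraries, were not used. Where a library of the 7 days experiment was sequenced again, its deeper column was used and the first one was not. For the 6 untreated libraries at 48 hr the column of the first run was used.

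Counts were rounded and tested with edgeR 4.0.16 in R 4.3.3 (filterByExpr, TMM scaling, quasi-likelihood F test, Benjamini-Hochberg adjustment, adjusted p below 0.05). The standard error is the absolute log2 fold-change divided by the square root of F. Only the 2 groups entered the fit of flow at 7 days, while an interaction term over the libraries of both experiments gave the differences from 48 hr and from EC-KO arteries. DESeq2 1.42.0 was an alternative. On simulated counts the test of flow at 7 days recovered 6% of changes of log2 1.5 and 62.4% of log2 3. Without low 1 it recovered 35.1% and 78%. The interaction recovered 6.38% and 64.1% for 48 hr and 2.78% and 48.9% for EC-KO arteries. A gene that was not called may therefore still differ. FPKM was computed here from the deposited unrounded counts, the table's effective lengths and the library totals. With 3 against 2 libraries an exact permutation test of one gene cannot go below p = 0.1, so that none was used. The groups came from the labels. Named genes were Rbfox2, the called genes with non-overlapping groups and at least 5 FPKM in the higher group (up to 15 a direction, by fold change, a rule then applied without low 1), the 10 with the lowest p in each direction, genes of the interactions, and members of the lists. A few genes that the rule names are not reported here. Members and lists were chosen with earlier results of these data known. Floors are 3 counts per library and cover counting error only. Promoters (250 bases before to 50 after the start, 32851 in all) came from RefSeq, GRCm38.p6, and gene positions from mm9 annotation.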

Additional observations from a re-analysis of the deposited data

How the results depend on the processing

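The count of genes called at 7 days depended on low 1 and on the tool. Against 3 in the main test, edgeR called 0 to 3341 genes when each library was left out in turn, the highest without low 1, 0 with upper-quartile scaling and 320 with the EC-KO groups in the same fit, while DESeq2 called 1275. With the library number as a replicate block, in which low 1 has no partner, edgeR called 3843, or 4000 without low 1 as well. The labels do not say that the numbers pair the samples, and the deviations of number 4 from number 5 correlated between low and high flow at 0.169 across genes, over 2 pairs. For the difference from 48 hr (0 in the main test) DESeq2 called 33, the replicate block 18, IgG-treated arteries at 48 hr 0 with low 1 and 498 without it, and leaving out each library gave 0 to 176. For the difference from EC-KO arteries (0 in the main test) DESeq2 called 19, and leaving out each library gave 0 to 7. The cause of these shifts was not tested. IgG-treated arteries without low 1, list medians without low 1 and the EC-KO difference without both libraries numbered 1 were chosen after seeing the data. RLE scaling and no filter on low counts kept the count at 3. Adding up both runs of low 5 was planned and not run, since its first column was not used here.

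Of 210 named genes with a fit, 169 that the main test did not call passed the threshold without low 1. With the replicate block 176 did so, and by DESeq2 129. Over all genes tested, 3341 of 12322, 3843 of 12795 and 1275 of 12989 passed in these fits, in that order. Some of the named genes were chosen because they passed without low 1 or had a low p, which raises their counts. Among the 210 genes, 9 had a log2 fold-change of the other sign in some setting, none of them called by the main test. Leaving out each library, the values ran from -0.19 to 11.54 for Cd8a, -2.25 to 0.04 for Cirbp, -0.20 to 1.43 for Cnn1, -0.20 to 0.27 for Icam1, -0.40 to 0.15 for Rbfox2, -0.35 to 2.32 for S100a8, -0.52 to 2.18 for S100a9 and -3.51 to 11.40 for Ucp1, the last a fitted value that depends on the prior count. With the replicate block Cd3e was at -2.35, Cnn1 at -0.27, Icam1 at -0.24 and Rbfox2 at 0.02, and with the block and without low 1 Cnn1 was at -0.23, Icam1 at -0.21 and Rbfox2 at 0.05. DESeq2 gave Rbfox2 a log2 fold-change of 0.00014. Scaling moved no list median by more than the spread of the low flow libraries. In a library of 10318685 counts, 3 counts limit what can be told from 0.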

Other observations

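Receptors for the matrix and the basement membrane they bind to differed by member. Of 22 integrin and laminin genes tested over 5 libraries, 9 were higher and 2 lower without overlap, and without low 1 edgeR called 8 of 21 higher and 3 lower. Itga5, which pairs with Itgb1 as the fibronectin receptor, was at 116, 229.5 and 166 FPKM at low flow and 106 and 111 FPKM at high flow, while Itgb1 itself was at 549, 622 and 606 FPKM at low flow and 621 and 671 FPKM at high flow. Itga6, a laminin receptor chain, was at 11.4, 34.7 and 17.5 FPKM at low flow and 5.94 and 4.35 FPKM at high flow, with a log2 fold-change of 2.30 ± 0.37 without low 1 (edgeR adjusted p = 0.0105). Of the laminins, Lamb2 was lower, at 68.5, 26.6 and 47 FPKM at low flow and 131 and 144 FPKM at high flow, and Lamc1 higher, at 20.6, 23.4 and 24.6 FPKM at low flow and 11.1 and 15.4 FPKM at high flow. Guidance genes, whose products steer axons and vessels, were counted as 6 of 20 lower and 1 higher without overlap, and without low 1 edgeR called 4 lower and none higher. Netrin 1 (Ntn1) was at 27.5, 8.55 and 12.3 FPKM at low flow and 67.1 and 67.6 FPKM at high flow, the semaphorin Sema3f at 40.5, 31.7 and 37.6 FPKM at low flow and 103 and 111 FPKM at high flow and the venous receptor Ephb4 at 36.6, 28.4 and 24.6 FPKM at low flow and 59 and 67 FPKM at high flow. All 3 low flow libraries lay below both high flow libraries in these 3 genes.

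Complement and cytokine genes were spread over several patterns. Of 17 complement genes 7 were higher and 1 lower without overlap, whereas without low 1 edgeR called 2 higher and 3 lower, and the median log2 fold-change was 1.12 over 5 libraries and 0.096 without low 1. The protease C1ra was at 76.5, 15.5 and 25.6 FPKM at low flow and 77.6 and 75.3 FPKM at high flow, so that low 1 was level with high flow while low 4 and low 5 were below it, whereas the membrane inhibitor Cd59a was below high flow in all 3 libraries, at 58.8, 20.6 and 26.1 FPKM at low flow and 72.6 and 69.2 FPKM at high flow. The receptors C3ar1 and C5ar1 were at 1.83, 4.23 and 0.63 FPKM at low flow and 0.0654 and 0.0214 FPKM at high flow and at 2.98, 28.3 and 2.23 FPKM at low flow and 0.521 and 0.0758 FPKM at high flow. Of 18 cytokine and Toll-like signalling genes, 11 were higher without overlap, and 5 of 17 were called higher and 1 lower without low 1. Nfkb2 was at 20.4, 32.7 and 27.6 FPKM at low flow and 11.3 and 15.7 FPKM at high flow and the interleukin-1 receptor antagonist Il1rn at 0.506, 43.5 and 0.685 FPKM at low flow and 0.09 and 0 FPKM at high flow, the second resting on low 4. Cirbp, an RNA-binding protein that cold induces, was at 95.3, 10.5 and 9.93 FPKM at low flow and 54.8 and 40.4 FPKM at high flow, while its relative Rbm3 was at 191, 302 and 256 FPKM at low flow and 112 and 113 FPKM at high flow, so that the 2 had opposite directions without low 1 (-2.25 ± 0.27 and 1.26 ± 0.16). The chaperonin Hspd1 was at 84.1, 289.9 and 314 FPKM at low flow and 80.2 and 70.8 FPKM at high flow. Levels of macrophage genes, highest in low 4, moved with the complement receptors and cytokine genes, and their part in these values was not tested.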
